A study of Mus musculus with 6 samples.

Results

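The genes described here, 47 in all and nearly all for enzymes, belong to amino acid breakdown and the methionine cycle in mouse liver. They were chosen by gene name from the 41838 loci of the table, and all 47 were found. They fall into 12 groups by amino acid or route. Liver messenger RNA was sequenced from 3 Alkbh5-HKO mice and 3 Alkbh5flox/flox mice at 9 weeks of age on normal chow. The titles of the HKO samples also carry the name Alkbh5-CKO, and the flox mice, named as homozygous for the floxed gene, were the controls. No source used here names the Cre driver, the deleted exons, the meaning of HKO and CKO, the sex of the mice or their feeding state. Each library is described as an independent biological replicate.

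The liver is the main site at which most dietary amino acids are broken down. Aromatic amino acids, histidine, serine, threonine, glycine, lysine and proline lose their nitrogen there and feed their carbon into glucose, ketone or energy metabolism, and several of the first enzymes, such as Tat and Tdo2, are known to respond to glucocorticoids. The methionine cycle makes S-adenosylmethionine, the methyl donor for RNA methylation among many other reactions, and returns homocysteine to methionine or passes it to cysteine. ALKBH5 is a demethylase that removes the N6-methyl group from adenosine in RNA.

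Alkbh5 itself (chromosome 11, 60537683 to 60558512, GRCm38.p6) was at 0.508, 0.443 and 0.476 FPKM (read pairs per kilobase of gene, scaled for the size of each library) in HKO livers and 17.8, 16.8 and 14.8 FPKM in flox livers. Its log2 fold change was -3.56 (SE 0.12, adjusted p = 8.14e-05), so the targeted gene was low in each library labelled HKO. All fold changes below are log2 of FPKM + 1, HKO minus flox, tested with limma and Benjamini-Hochberg (BH) adjustment over the 10453 genes whose mean level reached 1 FPKM. Of those genes 0.488% passed an adjusted p of 0.05, 28 as higher and 23 as lower, while voom on the recovered reads passed 78 and 42. Depth was 14907384 to 17034754 reads per library. HKO library 1 lay apart on the first principal component (44% of the variance), at 38.56 against 15.74 and 4.515 in the other HKO libraries and -22.65 to -13.72 in flox. Summed FPKM of 8 hepatocyte markers was 57003 to 59202 in HKO and 51785 to 60689 in flox. Most of that sum was Alb, higher in each HKO library, while 6 of the 8 were lower on average in HKO, with Apoa1 and Hnf4a lower in each HKO library. Of 6 kidney tubule markers, 5 were at 0 in each library, which matters because the kidney also expresses many of these enzymes. Summed FPKM of 6 erythroid markers was 105 to 209 in HKO and 352 to 674 in flox, and the part of blood content in the values below was not tested. In whole liver, fewer cells of a type and less RNA per cell cannot be told apart.

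All 47 genes passed the level filter, and 0 of them passed the test, against 0.488% of all tested genes. Voom on the recovered reads likewise passed 0. The lowest adjusted p was 0.137 by limma, for Sdsl, and 0.0884 by voom, for Aldh4a1. At an unadjusted p under 0.05 there were 7 of the 47 by limma, or 14.9% against 17.0% of all tested genes, and 9 by voom, or 19.1% against 17.3%. On average 26 were higher and 21 lower in HKO, or 44.7% lower against 52.0% of all tested genes. Their median log2 fold change was 0.065, against -0.015 over all tested genes. In 8 genes the groups did not overlap, which is 17.0% of the 47 genes against 25.4% of all tested genes. With libraries scaled to the sum of their reads, by limma or voom, it was 13 genes, or 27.7% against 24.3%, so the order of these shares turned with the scaling. The 8 were 7 higher and 1 lower in HKO, where 12.8% and 12.6% of all tested genes were separated in those directions. For 41 of the 47 genes the 95% interval of the difference lay within 2-fold in either direction. Over all tested genes this held for 8678 of 10453. The exceptions among the 47 were Tat, Hpd, Hal, Sdsl, Got1 and Prodh. The 47 genes together took 2.25%, 2.17% and 2.45% of the reads in HKO libraries 1 to 3 and 2.57%, 2.64% and 2.11% in flox libraries 1 to 3, so their total did not separate the groups.

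**Figure D1:**
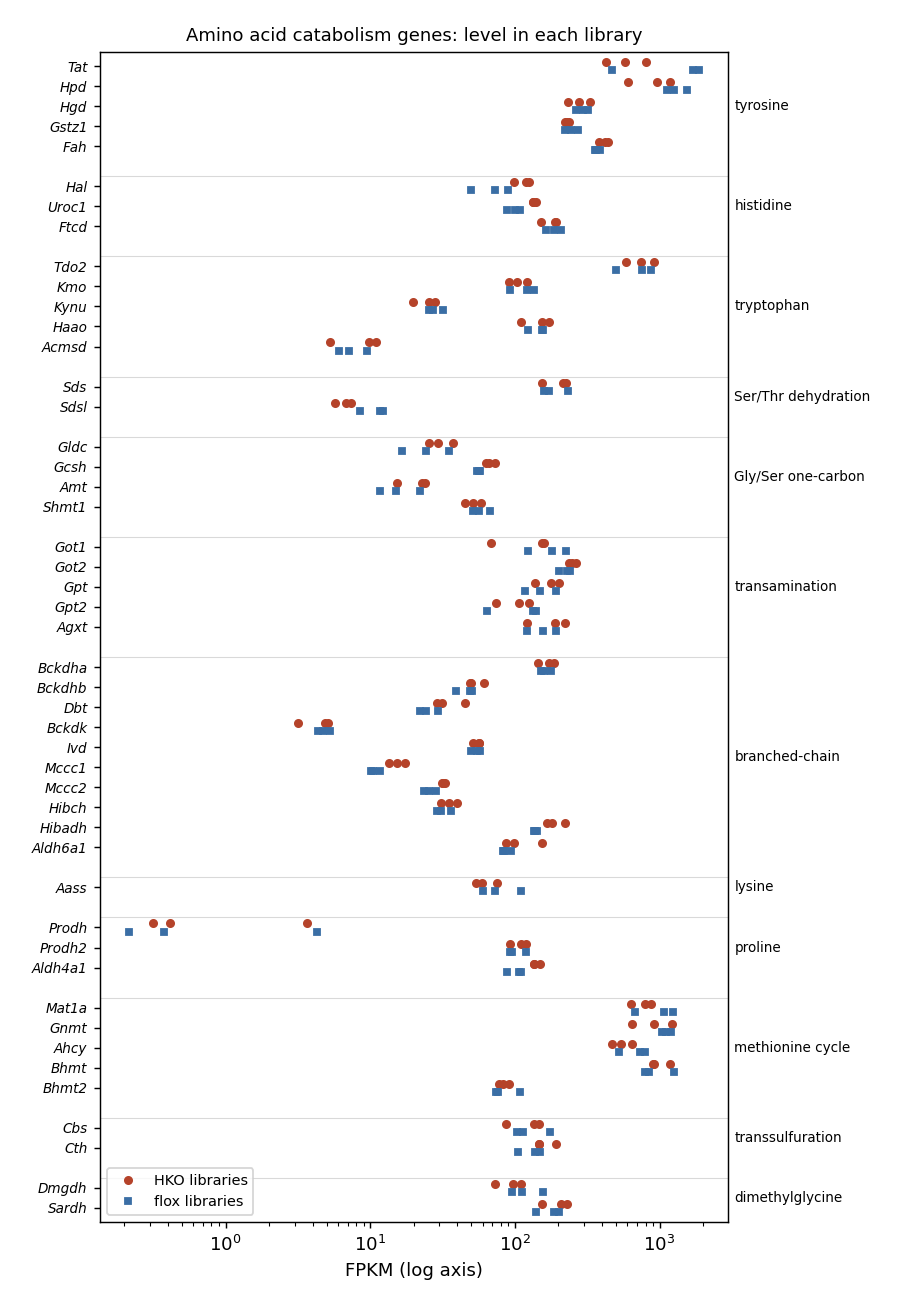
FPKM of each of the 47 genes in each library on a log axis, grouped by amino acid, with HKO libraries as circles above and flox libraries as squares below in each row. Hpd had the highest mean level over the 6 libraries and Prodh the lowest, and for most genes the circles and squares cover the same range.

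**Figure D2:**
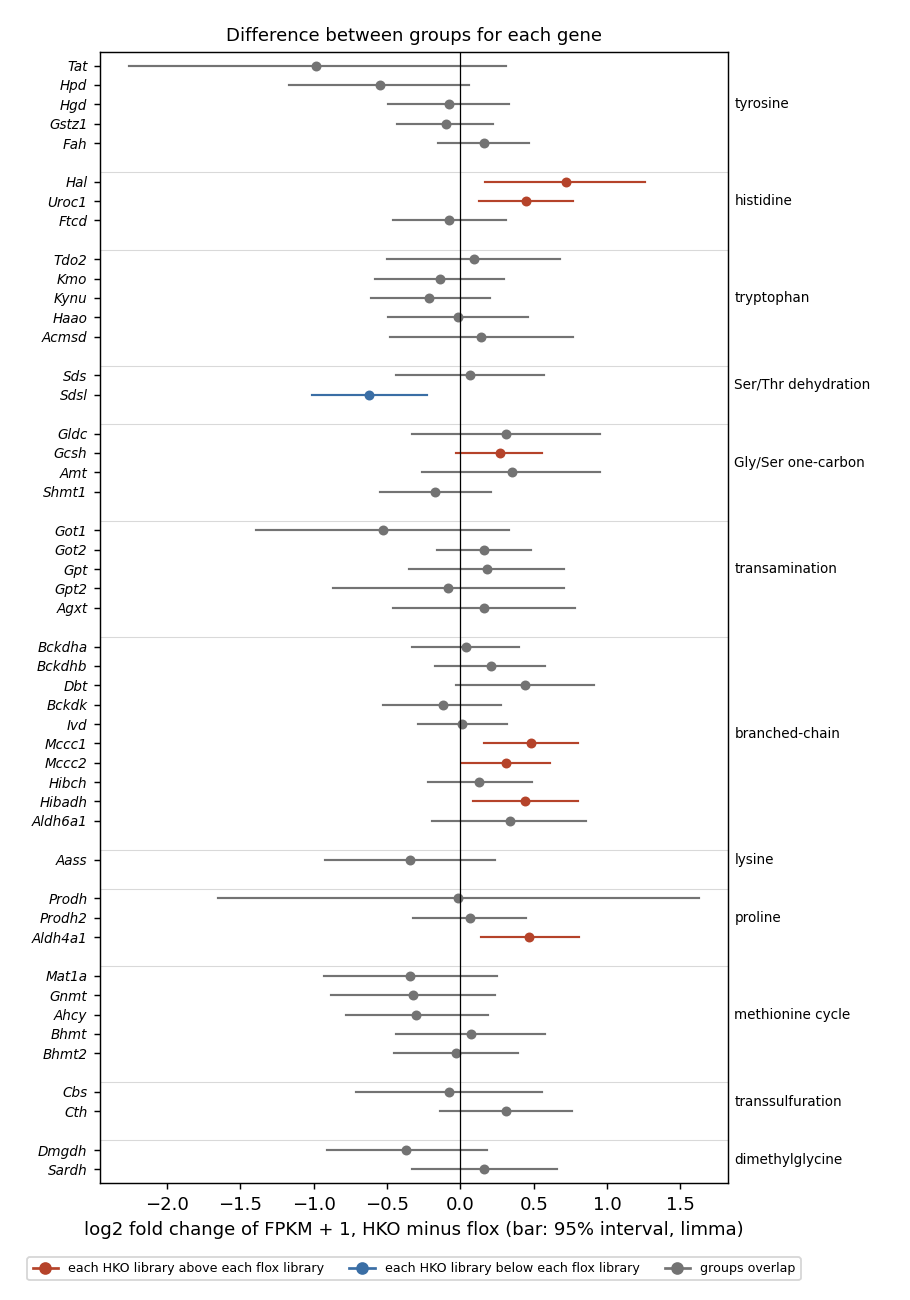
Log2 fold change of FPKM + 1, HKO minus flox, for each gene, with its 95% interval from limma. Colour marks the 7 genes with each HKO library above each flox library and Sdsl, the 1 gene with the reverse, while 39 genes overlap.

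Promoter sequences were matched for 40 of the 47 genes (RefSeq, GRCm38.p6), and the 250 bases before the start were searched on both strands for 6 motifs. The CCAAT box, CCAAT, was found in 25 of 40, or 62.5%, against 34.8% of 25762 promoters of all genes and 36.9% of the 7926 promoters of tested genes. The TATA box, TATAAA, was found in 15.0%, against 12.9% of all promoters and 6.57% of those of tested genes. The C/EBP motif TTNNGNAA, which can overlap a CCAAT box, was found in 30.0%, against 37.0% of all and 29.1% of tested. The glucocorticoid half-site TGTTCT was found in 4 of 40, against 15.9% of all and 11.1% of tested, and the cAMP half-site TGACG in 12.5%, against 18.0% of all and 28.1% of tested. The HNF4 motif CAAAGTCC was found in 0 of 40, against 1.18% of all and 1.5% of tested. The 7 genes that lay higher in each HKO library all held a CCAAT box, and so did Tat. Genes whose groups overlapped held it too, among them Ahcy, Bhmt, Cbs, Gnmt, Got1 and Ivd. No promoter was matched for Sdsl, the 1 gene lower in each HKO library. A link between the box and the direction of a difference was not tested. A match describes these letters and is no evidence of binding. The sequences shown are those of Hal and Tat, the genes with the largest difference up and down, and of the pair Mccc1 and Mccc2, on the strand of the gene, ending at the base before its start. Capitals mark the CCAAT box or its reverse complement.
Hal, chr10:93488518-93488767, plus strand: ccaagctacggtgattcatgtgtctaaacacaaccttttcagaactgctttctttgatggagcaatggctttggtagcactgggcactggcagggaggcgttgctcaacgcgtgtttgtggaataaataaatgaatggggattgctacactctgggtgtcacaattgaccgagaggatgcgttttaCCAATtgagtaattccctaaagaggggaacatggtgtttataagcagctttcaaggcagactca
Mccc1, chr3:36000679-36000928, minus strand: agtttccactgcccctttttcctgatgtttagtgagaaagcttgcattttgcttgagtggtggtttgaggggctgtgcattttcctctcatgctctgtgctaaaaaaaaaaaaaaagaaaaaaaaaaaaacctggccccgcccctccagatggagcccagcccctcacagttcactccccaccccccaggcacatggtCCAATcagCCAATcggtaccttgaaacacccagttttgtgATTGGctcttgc
Mccc2, chr13:100015640-100015889, minus strand: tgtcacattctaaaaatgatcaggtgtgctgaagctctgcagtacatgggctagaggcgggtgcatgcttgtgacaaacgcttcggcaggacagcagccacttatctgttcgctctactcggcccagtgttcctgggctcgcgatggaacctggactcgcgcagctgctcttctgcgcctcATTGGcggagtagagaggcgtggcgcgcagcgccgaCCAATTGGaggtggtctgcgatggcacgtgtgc
Tat, chr8:109990186-109990435, plus strand: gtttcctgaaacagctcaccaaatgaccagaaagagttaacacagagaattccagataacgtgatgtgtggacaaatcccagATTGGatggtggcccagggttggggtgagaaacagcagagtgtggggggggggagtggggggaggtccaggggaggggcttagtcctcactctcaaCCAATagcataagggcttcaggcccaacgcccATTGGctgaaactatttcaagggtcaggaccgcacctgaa
The 1 box of Hal began 64 bases before the start, and in Tat 1 of 3 began 40 bases before it. Mccc1 and Mccc2 each held 3 within 69 bases of the start. In Mccc2 the boxes 33 and 30 bases before the start overlap, as CCAATTGG reads the same on either strand.

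Histidine breakdown held the largest positive difference of the 47 genes. Hal, the lyase that removes ammonia from histidine to give urocanate, was at 119, 126 and 98.8 FPKM in HKO livers and 49.5, 73.4 and 90.3 FPKM in flox livers. Each HKO library lay above each flox library, but the lowest HKO value and the highest flox value were close. The means were 115 ± 14.1 FPKM in HKO and 71.1 ± 20.5 FPKM in flox (SD, n = 3 each), a ratio of 1.61, and the log2 fold change was 0.72 (SE 0.23, adjusted p = 0.191). Uroc1, the urocanase that acts next, was at 139, 133 and 133 FPKM in HKO and 87.7, 108 and 101 FPKM in flox, again without overlap (log2 0.45, SE 0.14, adjusted p = 0.170). Amdhd1, the enzyme after Uroc1 and not one of the 47, was at 85.0, 109 and 96.1 FPKM in HKO and 50.8, 69.9 and 96.4 FPKM in flox. Its groups overlapped through flox library 3 alone. Ftcd, which passes the formimino group of the route's product to folate, averaged 177 ± 23.0 FPKM in HKO and 187 ± 22.1 FPKM in flox (log2 -0.07).

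In branched-chain amino acid breakdown, 9 of 10 genes were higher on average in HKO and 1 lower, and 0 passed the test. Over all tested genes 52.0% were lower. In 3 of the 10, all higher in HKO, the groups did not overlap, against 25.4% of all tested genes and 12.8% in that direction. The median log2 fold change was 0.26, against -0.015 over all tested genes. Bckdha, the E1 alpha subunit of the dehydrogenase complex that commits the carbon skeletons to breakdown, was at 144, 187 and 171 FPKM in HKO and 158, 178 and 152 FPKM in flox. The groups covered the same range (log2 0.04, adjusted p = 0.921). Of the 50-base windows of its transcripts 49.6% also occur in transcripts annotated to B3gnt8, so its value is uncertain where reads were shared. B3gnt8 itself was listed at a mean of 0.925 FPKM in HKO and 0.557 FPKM in flox. The E1 beta subunit Bckdhb averaged 53.3 ± 7.13 FPKM in HKO and 46.1 ± 5.77 FPKM in flox, and the E2 subunit Dbt 35.1 ± 8.61 FPKM in HKO and 25.3 ± 3.75 FPKM in flox. Bckdk, the kinase that switches the complex off, was the 1 gene of this group below flox, at 4.37 ± 1.05 FPKM in HKO and 4.79 ± 0.462 FPKM in flox (log2 -0.12, adjusted p = 0.739).

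Both subunits of methylcrotonyl-CoA carboxylase, an enzyme of leucine breakdown, were higher in each HKO library than in each flox library, without passing the test. The biotin-carrying alpha subunit Mccc1 was at 17.4, 15.3 and 13.5 FPKM in HKO and 10.1, 11.6 and 10.5 FPKM in flox (log2 0.48, SE 0.14, adjusted p = 0.157). The beta subunit Mccc2 was at 31.8, 33.0 and 31.2 FPKM in HKO and 23.4, 28.3 and 25.3 FPKM in flox (log2 0.31, SE 0.13, adjusted p = 0.271). Ivd, the dehydrogenase just before them in the leucine route, averaged 54.5 ± 3.03 FPKM in HKO and 54.1 ± 4.14 FPKM in flox, the smallest difference of the branched-chain genes (log2 0.01, 95% interval -0.29 to 0.32). In the valine route, Hibadh, which oxidises 3-hydroxyisobutyrate, was at 221, 181 and 166 FPKM in HKO and 135, 137 and 143 FPKM in flox (log2 0.44, SE 0.15, adjusted p = 0.209). Its flox values were tightly grouped and lay below all 3 HKO values. Hibch, the hydrolase before it, averaged 35.3 ± 4.51 FPKM in HKO and 32.0 ± 3.65 FPKM in flox, and Aldh6a1, which acts after it, 113 ± 35.9 FPKM in HKO and 86.9 ± 5.67 FPKM in flox, with overlap. HKO library 1, which lay apart on the first principal component, held the highest values of Dbt, Hibadh and Aldh6a1, 44.9, 221 and 154 FPKM. It also held those of Bckdhb, Mccc1 and Hibch, 61.6, 17.4 and 39.8 FPKM. Bckdha, Bckdk, Ivd and Mccc2 were highest in other libraries.

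**Figure D3:**
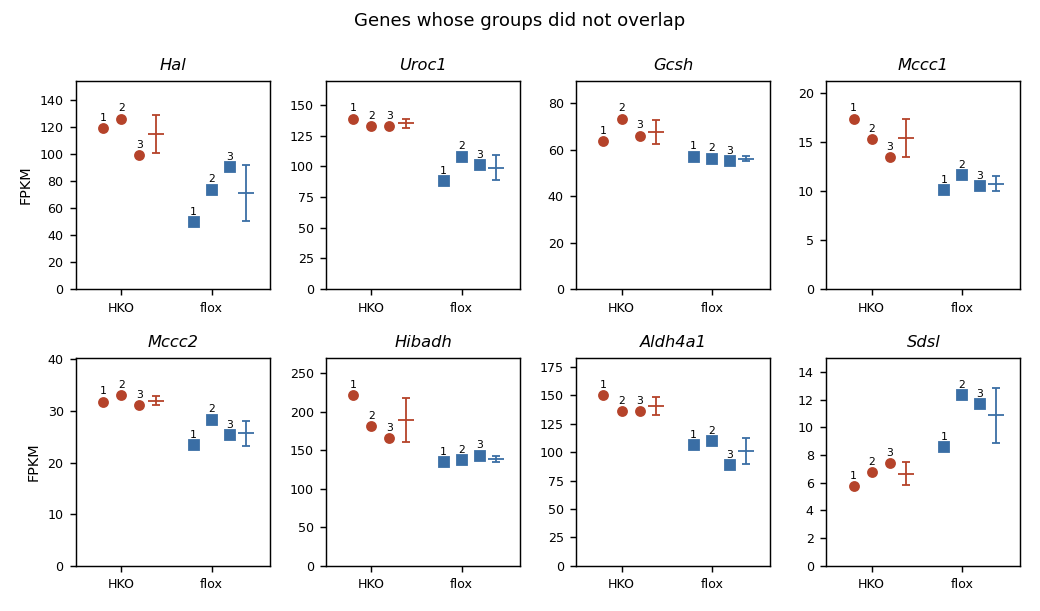
FPKM per library, numbered, with mean and SD, in HKO (left) and flox (right) for the 8 genes whose groups did not overlap. Hal, Uroc1, Gcsh, Mccc1, Mccc2, Hibadh and Aldh4a1 lay higher in HKO and Sdsl lower, and none passed the test over all genes.

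Tyrosine breakdown was lower on average in 4 of 5 genes, against 52.0% of all tested genes. The median log2 fold change of the 5 was -0.10. This route held the largest absolute difference of the 47. Tat, the aminotransferase that starts the route, was at 578, 427 and 803 FPKM in HKO and 1888, 1708 and 468 FPKM in flox. Flox libraries 1 and 2 lay far above every HKO library, whereas flox library 3 lay among the HKO values. The log2 fold change was -0.98 with a wide interval (SE 0.54, 95% interval -2.26 to 0.31, adjusted p = 0.407). It was -1.62 without flox library 3 and -0.62 without flox library 1. Without flox library 3, Tat had an adjusted p of 0.0690, the lowest of any of the 47 genes under any alternative, within 0.0690 to 0.707 over its alternatives. Hpd, the dioxygenase that follows, was at 610, 965 and 1180 FPKM in HKO and 1266, 1543 and 1127 FPKM in flox (log2 -0.55, SE 0.26, adjusted p = 0.335). In Hpd the groups overlapped through HKO library 3 and flox library 3, and without HKO library 1, its lowest, the log2 fold change was -0.29. Of the later steps, Hgd, which opens the ring, averaged 281 ± 50.8 FPKM in HKO and 295 ± 27.3 FPKM in flox, the isomerase Gstz1 229 ± 6.76 FPKM in HKO and 247 ± 26.4 FPKM in flox, and Fah, the last enzyme, 412 ± 30.2 FPKM in HKO and 368 ± 14.9 FPKM in flox.

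Dehydration of serine and threonine held the 1 gene lower in each HKO library than in each flox library. Sdsl, a relative of serine dehydratase, was at 5.75, 6.77 and 7.39 FPKM in HKO and 8.56, 12.3 and 11.7 FPKM in flox. The means were 6.64 ± 0.826 FPKM in HKO and 10.8 ± 1.99 FPKM in flox (SD, n = 3 each), a ratio of 0.613, with a log2 fold change of -0.62 (SE 0.17, adjusted p = 0.137) on 138 to 287 reads per library. Sds, serine dehydratase itself, is the neighbouring gene on chromosome 5 (120476547 to 120483932, against 120458193 to 120472823 for Sdsl). It was at 215, 153 and 224 FPKM in HKO and 173, 234 and 158 FPKM in flox, with full overlap (log2 0.07, SE 0.22, adjusted p = 0.897). Of the windows of Sds, 21.2% also occur in other genes, mostly Plbd2, which overlaps its end on the other strand.

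The glycine cleavage system, which splits glycine in mitochondria and hands a carbon to folate, was higher on average in HKO in its 3 listed subunits. Gldc, the decarboxylase that starts the reaction, was at 25.4, 37.4 and 29.5 FPKM in HKO and 16.6, 24.4 and 35.2 FPKM in flox (log2 0.31, SE 0.27, adjusted p = 0.593). The lipoyl carrier protein Gcsh was at 63.6, 73.4 and 66.0 FPKM in HKO and 57.0, 56.1 and 54.9 FPKM in flox, without overlap (log2 0.27, SE 0.13, adjusted p = 0.336). The aminomethyltransferase Amt averaged 20.8 ± 4.66 FPKM in HKO and 16.3 ± 5.26 FPKM in flox, with overlap. Gcsh was the least variable of the 47 genes between libraries of a group, and Gldc and Amt were lowest in flox library 1 and highest, within flox, in library 3. Shmt1, the cytosolic hydroxymethyltransferase that converts serine and glycine into each other, averaged 51.7 ± 6.58 FPKM in HKO and 58.2 ± 8.19 FPKM in flox (log2 -0.17, adjusted p = 0.630). It lies 230 kb from Alkbh5 on chromosome 11.

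Tryptophan breakdown showed no gene without overlap, and its median log2 fold change was -0.01. Tdo2, the dioxygenase that opens the ring, was at 910, 583 and 749 FPKM in HKO and 755, 867 and 503 FPKM in flox (log2 0.09, SE 0.25, adjusted p = 0.878). The groups covered the same range. Kmo averaged 105 ± 15.2 FPKM in HKO and 117 ± 21.5 FPKM in flox, Kynu 24.4 ± 4.33 FPKM in HKO and 28.2 ± 3.51 FPKM in flox, and Haao 145 ± 32.0 FPKM in HKO and 145 ± 19.0 FPKM in flox, all enzymes on the way to NAD. Acmsd, the decarboxylase that turns the route away from NAD, averaged 8.69 ± 2.98 FPKM in HKO and 7.59 ± 1.73 FPKM in flox. Adjusted p-values of these 5 genes were 0.573 to 0.978.

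Among the 5 transaminases of aspartate, alanine and glyoxylate, Got1 and Gpt2 varied most within groups. Got1, the cytosolic aspartate aminotransferase, averaged 127 ± 50.3 FPKM in HKO and 177 ± 51.8 FPKM in flox (log2 -0.53, SE 0.37, adjusted p = 0.490), with 68.7 FPKM in HKO library 2 as its lowest value. Gpt2, the mitochondrial alanine aminotransferase, averaged 102 ± 26.1 FPKM in HKO and 112 ± 41.9 FPKM in flox, with 64.0 FPKM in flox library 3. The other forms of both enzymes varied less within groups. Got2, in mitochondria, averaged 250 ± 13.6 FPKM in HKO and 224 ± 18.5 FPKM in flox, Gpt, in the cytosol, 173 ± 33.6 FPKM in HKO and 154 ± 37.2 FPKM in flox, and the glyoxylate aminotransferase Agxt 178 ± 50.7 FPKM in HKO and 157 ± 36.6 FPKM in flox. Got2 shares 25.6% of its windows with other genes, mostly Gm10874, and is uncertain where reads were shared.

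For lysine, Aass, the synthase that starts the main route, was at 75.5, 53.8 and 59.4 FPKM in HKO and 111, 73.0 and 60.6 FPKM in flox, with overlap (log2 -0.34, SE 0.25, adjusted p = 0.512). Prodh, the proline dehydrogenase, was at 0.411, 0.313 and 3.63 FPKM in HKO and 4.28, 0.373 and 0.214 FPKM in flox. The highest value was 11.6 times the lowest within HKO and 20.1 times within flox, and 0.689% of tested genes were more variable within groups. Its log2 fold change of -0.01 had a 95% interval of -1.65 to 1.63, wider than for any other of the 47 genes. Prodh2, which acts on hydroxyproline, averaged 108 ± 13.4 FPKM in HKO and 103 ± 14.4 FPKM in flox (log2 0.07, adjusted p = 0.849). Aldh4a1, which oxidises the semialdehydes from both, was at 150, 136 and 136 FPKM in HKO and 106, 110 and 88.4 FPKM in flox, without overlap (log2 0.47, SE 0.14, adjusted p = 0.169). Of its windows 30.0% also occur in transcripts annotated to Gm21969.

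In the methionine cycle 4 of 5 genes were lower on average in HKO, the median of their log2 fold changes was -0.30, and the groups overlapped in all 5. Over all tested genes 52.0% were lower and the median was -0.015. Mat1a, the liver enzyme that makes S-adenosylmethionine, was at 797, 635 and 870 FPKM in HKO and 1237, 1076 and 673 FPKM in flox (log2 -0.34, SE 0.25, adjusted p = 0.519). As with Tat, flox libraries 1 and 2 lay above every HKO library and flox library 3 did not. Gnmt, which uses up S-adenosylmethionine by methylating glycine, averaged 927 ± 290 FPKM in HKO and 1121 ± 75.5 FPKM in flox, with 641 FPKM in HKO library 1. Ahcy, which splits S-adenosylhomocysteine, an inhibitor of methyltransferases, averaged 555 ± 87.9 FPKM in HKO and 687 ± 142 FPKM in flox (log2 -0.30, adjusted p = 0.493). Of the windows of Ahcy, 66.0% also occur in Gm4737, which was listed at a mean of 102 FPKM in HKO and 136 FPKM in flox, so the level of Ahcy is uncertain. Bhmt, which remethylates homocysteine with betaine, averaged 1001 ± 161 FPKM in HKO and 965 ± 250 FPKM in flox, and it shares 24.1% of its windows with Gm5096, listed at 94.6 FPKM in HKO and 98.2 FPKM in flox. Bhmt2 averaged 83.6 ± 6.56 FPKM in HKO and 86.3 ± 18.7 FPKM in flox. Its log2 fold change of -0.03 turned positive with sum-of-reads scaling and with voom.

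Transsulfuration passes homocysteine to cysteine. Cbs, its first enzyme, was at 87.0, 147 and 136 FPKM in HKO and 104, 113 and 175 FPKM in flox (log2 -0.08, SE 0.27, adjusted p = 0.900). Cth, the second, averaged 162 ± 26.8 FPKM in HKO and 131 ± 23.0 FPKM in flox (log2 0.31, adjusted p = 0.443). Neither separated the groups. Of the dehydrogenases that strip methyl groups from the betaine product, Dmgdh averaged 93.4 ± 18.7 FPKM in HKO and 121 ± 31.2 FPKM in flox (log2 -0.37, adjusted p = 0.455), and Sardh 198 ± 38.9 FPKM in HKO and 176 ± 33.4 FPKM in flox (log2 0.16, adjusted p = 0.717). Bhmt, Bhmt2 and Dmgdh lie side by side on chromosome 13, starting at 93616891, 93656097 and 93674436.

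Flox library 3 differed from the other flox libraries in many of these genes. In the deposited FPKM, flox library 3 was the lowest flox library for 29 of the 47 genes, or 61.7%, against 41.3% of all tested genes. Flox library 2 was the highest for 27. The authors' library size was 1.0774 times the sum of reads in flox library 3, against 0.9516 and 0.9251 in flox libraries 1 and 2. This lowers the FPKM of flox library 3 relative to the other 2, and the counts were not repeated with sum-of-reads scaling. Summed over the 47 genes, FPKM was 9611, 9290 and 11186 in HKO libraries 1 to 3 and 12030, 13023 and 9159 in flox libraries 1 to 3. Without flox library 3, the groups did not overlap for 18 genes, 9 higher and 9 lower in HKO, or 38.3% against 40.1% of all tested genes. In that limma fit 0 passed, and 10 had an unadjusted p under 0.05, or 21.3% against 17.9% of all tested genes. The 9 lower genes were Tat, Hpd, Gstz1, Got1, Gpt2, Mat1a, Ahcy, Dmgdh and Sdsl. Hal, Uroc1, Mccc1, Mccc2, Hibadh, Aldh4a1 and Gcsh stayed higher in each HKO library with any library left out, which follows from groups that do not overlap. Without HKO library 1, which lay apart, the groups did not overlap for 9 higher and 2 lower genes, or 23.4% against 36.4% of all tested genes, and the median log2 fold change was 0.092. Not all genes followed flox library 3 downward: 8 genes were highest there within flox, namely Hal, Gldc, Amt, Agxt, Cbs, Kynu, Bckdk and Hibadh. Agxt was at 194 FPKM in that library, Kynu at 32.1 FPKM and Bckdk at 5.28 FPKM. The median within-group SD on the log2 scale was 0.273 for the 47 genes and 0.206 over all tested genes, a difference that was not tested.

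**Figure D4:**
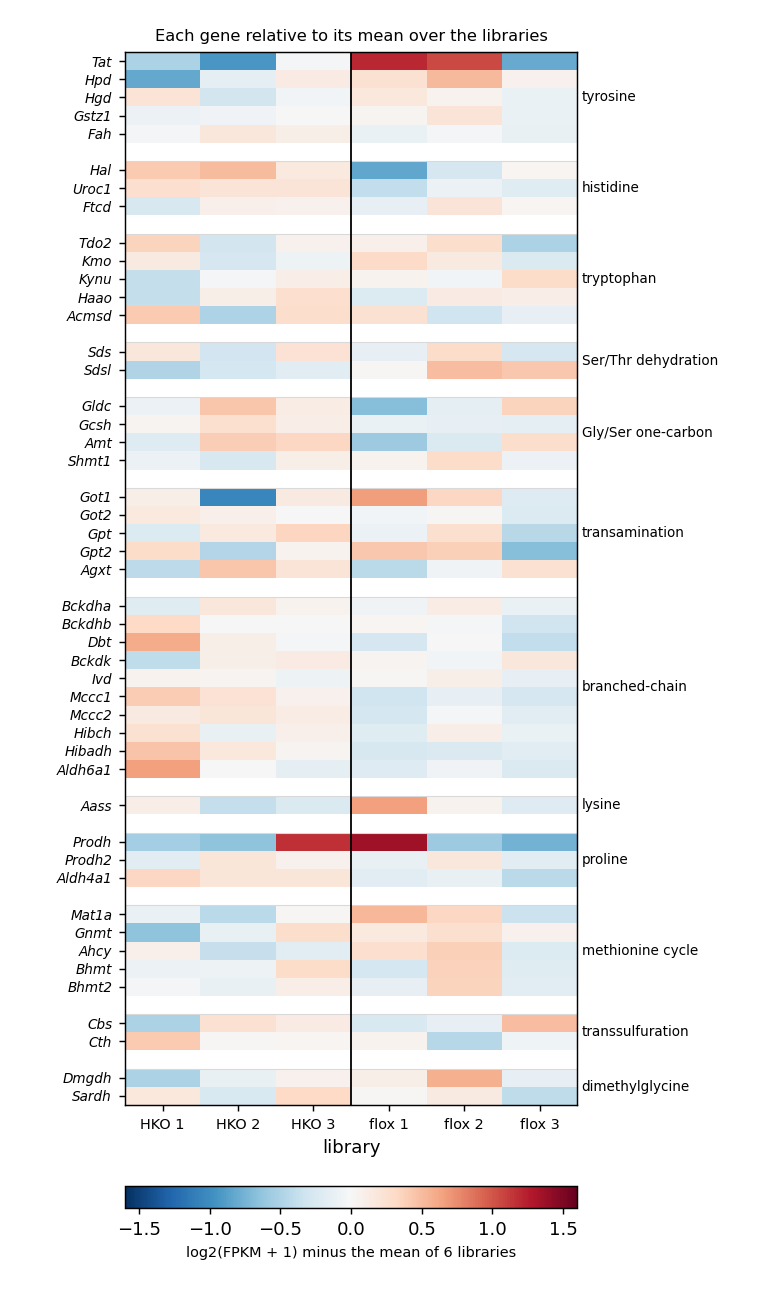
Log2(FPKM + 1) of each gene minus its mean over the 6 libraries, with the HKO libraries left and the flox libraries right of the line; red is above the mean and blue below. Tat, Mat1a and Gpt2 are red in flox libraries 1 and 2 and blue in flox library 3, while Mccc1, Hibadh and Uroc1 divide at the line.

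**Figure D5:**
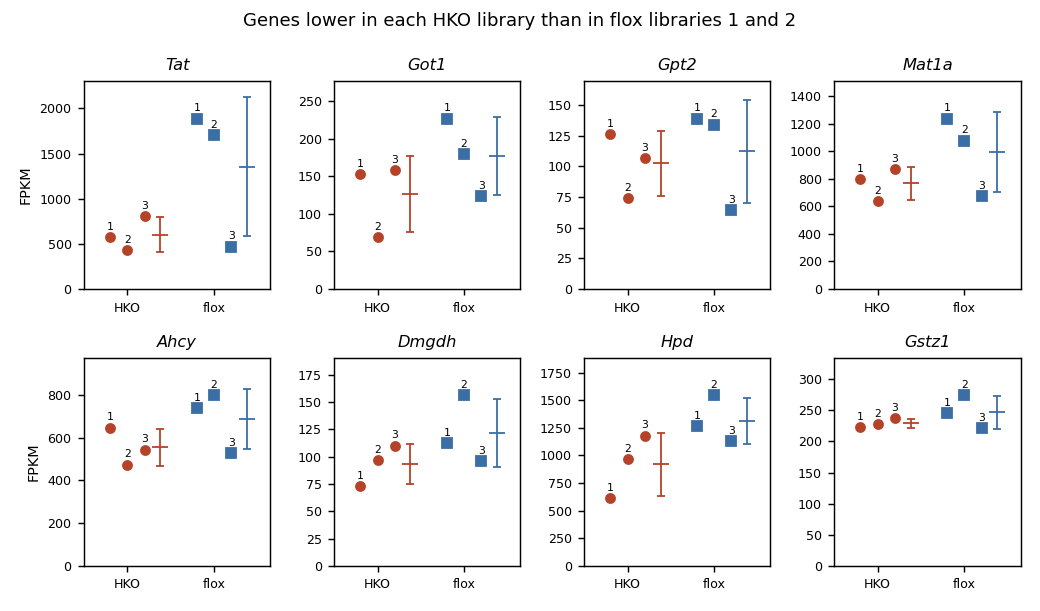
FPKM per library, numbered, with mean and SD, in HKO (left) and flox (right) for the 8 genes other than Sdsl that lay lower in each HKO library than in flox libraries 1 and 2. Tat stood at 1888 and 1708 FPKM in those flox libraries and at 468 FPKM in flox library 3.

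Of 64 other pathway genes 58 were tested, 38 higher and 20 lower on average in HKO, and their median was 0.15 on the log2 scale. Over all tested genes 52.0% were lower and the median was -0.015. Of the 58 genes 0 passed limma, and 10 had an unadjusted p under 0.05, against 17.0% of all tested genes. The largest differences were in Dhtkd1, a dehydrogenase subunit of lysine breakdown, Sqor, which oxidises sulfide in mitochondria, and Aadat, the aminoadipate aminotransferase. Sqor, which the table lists under the older name Sqrdl, was at 53.9, 54.6 and 52.9 FPKM in HKO and 28.2, 34.0 and 33.0 FPKM in flox (log2 0.75, SE 0.13, adjusted p = 0.0664). Dhtkd1 was at 21.8, 14.0 and 10.8 FPKM in HKO and 7.08, 9.51 and 7.52 FPKM in flox (log2 0.82, adjusted p = 0.168). Both were separated between the groups, and Aadat was not (log2 -0.53, adjusted p = 0.244). Among the 58 tested, 13 were separated as higher in HKO and 3 as lower. Over all tested genes 25.4% were separated, 12.8% as higher and 12.6% as lower.

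Of 14 amino acid transporters, 7 were higher and 7 lower on average, and 0 passed limma. At an unadjusted p under 0.05 there were 2 of the 14, against 17.0% of all tested genes. In 2 higher and 1 lower transporters the groups did not overlap, against 25.4% of all tested genes. Slc6a9, a glycine transporter, was at 7.06, 8.0 and 9.13 FPKM in HKO and 22.5, 23.3 and 13.0 FPKM in flox, without overlap (log2 -1.15, SE 0.23, adjusted p = 0.0793). Slc43a1, which carries large neutral amino acids, was at 5.71, 5.03 and 5.92 FPKM in HKO and 3.12, 3.35 and 1.10 FPKM in flox (log2 0.96, adjusted p = 0.156), and the glutamate transporter Slc1a2 had a log2 fold change of -0.42. Flox library 3 had the lowest flox value in these 3 genes. Of 9 transcription factors known to act on amino acid catabolism, 1 was higher and 8 lower on average, and 0 passed limma. Over all tested genes 52.0% were lower. At an unadjusted p under 0.05 there were 3 of the 9, against 17.0% of all tested genes. In 1 higher and 2 lower factors the groups did not overlap, against 25.4% of all tested genes. Cebpb was at 110, 162 and 198 FPKM in HKO and 412, 366 and 165 FPKM in flox (log2 -0.94, SE 0.38, adjusted p = 0.271), so that flox library 3 lay among the HKO values, as for Tat. Hnf4a was at 83.2, 116 and 133 FPKM in HKO and 165, 164 and 151 FPKM in flox (log2 -0.55, adjusted p = 0.216), separated between the groups.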

How the data were processed

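Poly(A) RNA from 6 livers was sequenced from both ends on the NovaSeq platform, per the labels' protocols. Alignment to GRCm38.p6 used HISAT2 2.0.5 and counting used featureCounts 1.5.0-p3, per the series text, and the submitters' processing notes also list CASAVA and DESeq2 1.20.0. No source used here gives the strand setting or the treatment of multiply matching reads, so values of genes that overlap or resemble another are uncertain. The authors deposited FPKM per gene and library. Multiplied by the deposited gene length, 100% of values were whole multiples of 1 step within 0.001 reads, which returned the reads. The authors' library size was 0.9251 to 1.0774 times their sum.

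From these FPKM, limma 3.58.1 (R 4.3.3, trend and robust) was run on log2(FPKM + 1) over the 10453 genes whose mean level reached 1 FPKM, with BH adjustment at 0.05. The added 1 understates changes of low genes. The fit was tested on simulated reads with equal scatter for every gene, no outlying library and no planted change under 2-fold. That run therefore does not measure power for smaller differences. Replicates of a group differed by more than sampling noise (chi-square 28.3 to 63.0 per degree of freedom). Shared sequence was counted as 50-base windows of GENCODE M21 transcripts that occur in another gene. Alternatives were 14: the pseudocount (0.1, 5), the filter (none, or a mean of 5 FPKM), median-of-ratios and sum-of-reads scaling, voom, a replicate block and each library left out. Values of each library were given for genes that passed or did not overlap and for the first enzyme of each route. Of the other pathway genes, the transporters and the transcription factors, those that passed and the 3 with the largest fold change of each were named, except 1 gene that is not reported here. Cell type lists served as markers only. Further values of single libraries, and Amdhd1, were picked after they were seen. The members and lists were chosen with earlier results of these data known.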

Additional observations from a re-analysis of the deposited data

How the results depend on the processing

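The count of the 47 genes that passed was 0 in each of the 14 alternatives, in either direction. Genes without overlap numbered 8 here, or 17.0% of the 47 against 25.4% of all tested genes. With sum-of-reads scaling or voom they numbered 13 (27.7% against 24.3%). With a library left out they numbered 10 to 18, or 21.3% to 38.3% against 31.7% to 40.1% of all tested genes. The median log2 fold change of the 47 was 0.065 here, 0.139 with sum-of-reads scaling, 0.141 with voom and -0.009 to 0.141 with a library left out. Over all tested genes it was -0.015 here, 0.045 with sum-of-reads scaling and 0.058 with voom. Over all tested genes, 28 higher and 23 lower genes became 18 higher and 16 lower with a pseudocount of 0.1, 0 and 1 with no filter (2514 at an unadjusted p under 0.05), 78 and 42 with voom, and 1 and 8 with the replicate block. With a library left out they were 0 to 29 and 1 to 38. The numbers did not pair the samples (correlations 0.153, -0.145 and -0.0514). Of 656 single-gene values 613 kept their sign and side of the threshold, and 43, in 16 genes with an absolute log2 fold change of at most 0.159, changed sign. Sum-of-reads scaling moved every one of the 47 upward, by 0.037 to 0.075. It and voom gave Ftcd 2.1e-04 and 0.0018, Haao 0.061 and 0.063, Prodh 0.024 and 0.109, and Bhmt2 0.045 and 0.047, and a pseudocount of 0.1 gave Prodh 0.092. With a library left out, Hgd ranged from -0.210 to 0.051, Ftcd from -0.157 to 0.038, Tdo2 from -0.137 to 0.257, Haao from -0.150 to 0.172, Acmsd from -0.035 to 0.425, Sds from -0.049 to 0.239, Gpt2 from -0.444 to 0.129, Agxt from -0.023 to 0.404, Bckdha from -0.049 to 0.140, Bckdk from -0.221 to 0.049, Ivd from -0.047 to 0.061, Prodh from -0.601 to 0.665, Prodh2 from -0.011 to 0.180, Bhmt from -0.057 to 0.274, Bhmt2 from -0.126 to 0.141 and Cbs from -0.226 to 0.152. For these the cause was not tested. The median 95% interval reached 0.47 to either side of the log2 fold change of the 47 genes.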
